A study of Saccharomyces cerevisiae with 8 samples.

Results

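The TOR pathway genes described here are 10 yeast genes chosen by systematic name, out of 5933 genes in the deposited tables, and no measured value enters the rule. The choice was made with earlier results of these data known. They encode the TOR kinases TOR1 (YJR066W) and TOR2 (YKL203C), their complex partners KOG1 (YHR186C), LST8 (YNL006W) and TCO89 (YPL180W), the effectors SCH9 (YHR205W) and SFP1 (YLR403W), and the phosphatase branch of SIT4 (YDL047W), TAP42 (YMR028W) and TIP41 (YPR040W). All 10 were found in every table and passed the filters on low counts for every measure.

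Direct RNA sequencing on the Helicos platform, which reads RNA from its polyadenylated 3′ end without a cDNA step, was run on 8 samples of the W303 background to measure gene expression and poly(A) site choice. Pcf11, the protein mutated in the series, belongs to cleavage factor IA, which acts in 3′ end cutting of pre-mRNA and in transcription termination. The groups were pcf11-13 with 20 mM caffeine for 2 h and without it, pcf11-dNL with and without caffeine, and wild type with and without caffeine. Wild type had 2 libraries per medium, from experiments 1 and 2, and each mutant had 1 per medium (experiment 1 for pcf11-13, experiment 2 for pcf11-dNL). All samples, the controls included, had the chromosomal gene removed (pcf11-delta::TRP1) and lived on a LEU2 plasmid (pRS325). The plasmid carried an untagged pcf11-13, V5-pcf11-deltaN-link MYC, or V5-PCF11-MYC in wild type. All strains also carried ura3-1, trp1-delta, ade2-1, a leu2-3 allele and his3-11,15. The pcf11-13 strain was MATa and the others MATalpha, so that allele, tag and mating type cannot be told apart in a comparison of pcf11-13 with wild type. Wild type came from both experiments and each mutant from only 1, so that such comparisons also partly mix strain with experiment. Growth was in YPAD, a rich medium with glucose, at 30 °C. The treated cultures had 2 h more of it, so that caffeine and time in culture cannot be told apart.

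TOR is a conserved protein kinase that forms a rapamycin-sensitive complex, TORC1, and a second complex, TORC2. In yeast, TORC1 contains Tor1 or Tor2 with Kog1, Lst8 and Tco89, and it promotes ribosome synthesis and growth when nutrients are plentiful. TORC1 phosphorylates the kinase Sch9 and the transcription factor Sfp1, and it restrains PP2A-like phosphatases such as Sit4 through Tap42. Caffeine at millimolar doses inhibits TORC1 in yeast and also activates the cell wall integrity pathway.

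Total counts ran from 1070278 to 4555751 per library, and the 10 genes together held 0.0908% to 0.113% of them. The treated wild-type and pcf11-dNL libraries, at 4410374 to 4555751 counts, were deeper than their untreated counterparts at 1070278 to 1631254, whereas the pcf11-13 pair was close in depth. The smallest count of any of the 10 genes was 36.8, for TCO89 in untreated pcf11-dNL. Markers of mating type followed the labels: MFA2, an a-factor gene, was at 1310 to 1860 CPM (scaled counts, a share of the library's counts) in the pcf11-13 libraries and at 7.47 to 25.2 CPM in the others. The labels do not say that the libraries came from separate cultures beyond the experiment numbers. The spread behind every p-value is that between these libraries, which may be technical. In the comparisons over all strains or over both media, that spread also holds differences between strains in the change with caffeine.

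The most A-rich 30 nucleotides of a coding sequence are shown for the genes at the ends of one measured range, the share of reads that the authors call truncated. Neither labels nor headers define the term, and its values match the share of reads outside the 3′ UTR in the authors' pooled columns. The first 3 are the genes with the largest mean share, TCO89 changed between experiments, and SIT4 had the smallest share. Capitals mark runs of at least 4 A, and all are on the coding strand, 5′ to 3′.
TOR1: agaaagagcaagagaatggagaaatAAAAA
TOR2: aaggcaaacacagaacaagaaagaaactta
KOG1: gaagaaagcaatagaacaaattggtAAAAA
TCO89: cagaagcaccatatgataaagAAAAAAAAA
SIT4: aataaagaaatgccaggcgctaactgAAAA
In the R64 reference (the sacCer3 assembly) these windows lie at chrX:561026-561055 (plus strand), chrXI:63266-63295 (minus), chrVIII:480281-480310 (minus), chrXVI:206161-206190 (plus) and chrIV:369806-369835 (plus), all within coding exons. They hold 19, 18, 18, 19 and 15 A, against a median of 18 A in the richest window of 5089 coding sequences. The windows were chosen for their number of A, so that longer runs can lie elsewhere in a coding sequence. The longest run of A was 8 in TOR1, 9 in TOR2, 7 in KOG1, 9 in TCO89 and 4 in SIT4, against a median of 6. A-rich stretches within a transcript can be captured together with true poly(A) tails by oligo(dT). The windows start at coding nucleotides 1611 (TOR1), 65 (TOR2), 363 (KOG1), 914 (TCO89) and 36 (SIT4). Apart from a proximal share with bounds not given, described below, the deposited values do not say where a truncated read ended. The part of these stretches in the results was not tested.

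Each of the 10 genes is a single exon in the annotation, and no annotated gene overlaps one of them. TOR1 (chromosome X, 559416 to 566828) and TOR2 (chromosome XI, 55935 to 63359) have coding sequences of 7413 and 7425 nucleotides, and KOG1 (chromosome VIII, 475999 to 480672) has 4674. The others are shorter. LST8 lies on chromosome XIV (620067 to 620978), TCO89 on XVI (205248 to 207647), SCH9 on VIII (509363 to 511837), SFP1 on XII (925568 to 927619), SIT4 on IV (369771 to 370706), TAP42 on XIII (327482 to 328582) and TIP41 on XVI (647305 to 648375). TAP42 faces FAR8 across a gap of 77 nucleotides, shorter than its own mean 3′ UTR. The sources used here do not say whether counting used strand or how reads with several places were treated, so counts of TAP42, which could take reads from FAR8, and of the paralogs TOR1 and TOR2 are uncertain.

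Neither kinase transcript passed the test for a change with caffeine. A read marks a 3′ end, and CPM (after TMM scaling) was not divided by gene length. It counts all reads of a gene, those outside the 3′ UTR included. For TOR1, reads ending in the 3′ UTR made only 12.9 to 21.9 CPM. TOR1 encodes the TORC1 kinase that is not essential. It had 48.0 CPM in treated and 81.8 CPM in untreated pcf11-13, 84.3 in treated and 60.7 in untreated pcf11-dNL, and 76.5 and 76.8 in treated against 102.2 and 60.8 in untreated wild type. The wild-type ranges overlapped, and caffeine went with a higher value in 2 of 4 pairs of libraries (treated and untreated, of the same strain and experiment) and a lower one in the other 2. TOR2, which can serve in both complexes and is essential, had 96.5 CPM in treated and 108 CPM in untreated pcf11-13, 94.0 in treated and 73.7 in untreated pcf11-dNL, and 92.4 and 92.4 in treated against 114 and 101.9 in untreated wild type. Both treated wild-type values lay below both untreated ones, a change of -0.22 ± 0.21 log2 in wild type (adjusted p = 0.44). The log2 change with caffeine over all strains was -0.11 ± 0.23 (SE) for TOR1 and -0.07 ± 0.16 for TOR2, and their adjusted p-values were 0.72 and 0.75 (edgeR quasi-likelihood test, Benjamini-Hochberg, here and for all expression values).

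Among the subunits of TORC1, LST8 rose with caffeine and the others did not pass the test. LST8 encodes a WD-repeat protein of both complexes that binds the kinase domain. It had 117 CPM in treated and 88.6 CPM in untreated pcf11-13, 179.8 in treated and 140.0 in untreated pcf11-dNL, and 164 and 195 in treated against 67.5 and 119 in untreated wild type. Both treated wild-type libraries lay above both untreated ones, and the treated library was the higher one in 4 of 4 pairs. The wild-type pairs differed by 1.27 and 0.71 log2, the pcf11-13 pair by 0.40 and the pcf11-dNL pair by 0.36. In wild type the rise was 0.93 ± 0.29 log2 (95% interval 0.26 to 1.60, adjusted p = 0.042), in a comparison in which 31.6% of 5849 genes passed the threshold of 0.05 (1000 higher and 849 lower). Over all strains it was 0.66 ± 0.22 log2 (0.17 to 1.14, adjusted p = 0.039), where 37.9% of genes passed (1166 higher and 1053 lower). LST8 was the only one of the 10 genes to pass in either comparison, so 1 of 10 called genes stands below both of these background shares.

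The LST8 call did not hold when some single libraries were left out. In wild type the call did not hold when the untreated library of experiment 1 (0.59 log2, adjusted p = 0.12) or the treated library of experiment 2 (0.80 log2, 0.095) was left out, nor under DESeq2 (0.91 log2, 0.066). Over all strains it was lost without the untreated wild-type library of experiment 1 (0.47 log2, 0.087) or 2 (0.75, 0.058), the treated one of experiment 1 (0.66, 0.084) or 2 (0.55, 0.11), or the untreated (0.76, 0.072) or treated (0.76, 0.077) pcf11-dNL library. The change stayed positive in each. Without either pcf11-dNL library that strain has no pair left, so these 2 omissions give the change in the other strains. Each omission also leaves fewer libraries to measure the spread. The numbers of all genes called moved as well. In wild type 1849 became 989 without the untreated and 1207 without the treated sample of experiment 2, and over all strains 2219 became 1464 without treated wild type of experiment 2 and 1121 or 1087 without untreated or treated pcf11-dNL. With only reads that ended in the 3′ UTR counted, a setting added after the data were seen, it was 0.79 log2 in wild type (adjusted p = 0.069) and 0.50 over all strains (0.10). The 3 genes whose log2 CPM followed LST8 most closely over the 8 libraries, among 5461 genes, were GPA2 (r = 0.981), DMA1 (0.972) and FAA1 (0.968). As the highest of 5461 values, these correlations were picked for their size, and a link to LST8 was not tested.

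KOG1 encodes the Raptor homolog that recruits substrates. It had 124 CPM in treated and 132 CPM in untreated pcf11-13, 147 in treated and 131 in untreated pcf11-dNL, and 132 and 172 in treated against 166 and 117 in untreated wild type. Treated and untreated values overlapped (0.07 ± 0.18 log2 over all strains, adjusted p = 0.77). TCO89, a TORC1-specific subunit, was the least abundant of the 10 genes. It had 39.1 CPM in treated and 52.2 CPM in untreated pcf11-13, 56.6 in treated and 34.5 in untreated pcf11-dNL, and 40.4 and 59.7 in treated against 40.7 and 41.8 in untreated wild type. Its change was 0.20 ± 0.22 log2 (adjusted p = 0.51), higher in both pairs of experiment 2 (0.51 and 0.70) and lower in both of experiment 1 (-0.01 and -0.41).

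The effectors did not pass the test. SCH9, the S6 kinase-like kinase that TORC1 phosphorylates, had 121 CPM in treated and 90.1 CPM in untreated pcf11-13, 98.8 in treated and 94.3 in untreated pcf11-dNL, and 114 and 104 in treated against 96.3 and 86.9 in untreated wild type. All 4 treated libraries lay above all 4 untreated ones, and its spread over libraries was the smallest of the 10 genes (SD 0.16 log2), but the change was 0.25 ± 0.14 log2 (adjusted p = 0.20). How many of all genes separate in this way was not counted, and 37.9% of all genes passed the same test. SFP1 activates ribosome biogenesis and ribosomal protein genes. It had 117 CPM in treated and 92.3 CPM in untreated pcf11-13, 123 in treated and 148 in untreated pcf11-dNL, and 111 and 115 in treated against 123 and 106 in untreated wild type. These values overlapped (0.01 ± 0.16 log2, adjusted p = 0.95).

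In the phosphatase branch, SIT4 differed most between experiments. Sit4 is the PP2A-like phosphatase that Tap42 binds. It had 106 CPM in treated and 108 CPM in untreated pcf11-13, 115 in treated and 231 in untreated pcf11-dNL, and 118 and 148 in treated against 122 and 222 in untreated wild type. The 2 untreated libraries of experiment 2 stood above the other 6. Treated cultures had the lower value in 4 of 4 pairs, by -0.58 and -1.0 log2 in experiment 2 and by -0.05 and -0.03 in experiment 1, and the test did not pass (-0.45 ± 0.24, adjusted p = 0.16; -1.01 ± 0.43 in pcf11-dNL, adjusted p = 0.15). TAP42, the regulatory partner of Sit4 and PP2A, had 113 CPM in treated and 102.1 CPM in untreated pcf11-13, 68.6 in treated and 94.3 in untreated pcf11-dNL, and 86.8 and 64.4 in treated against 80.4 and 90.2 in untreated wild type. It was higher with caffeine in both pairs of experiment 1 and lower in both pairs of experiment 2 (-0.16 ± 0.17 log2 over all strains, adjusted p = 0.48). TIP41, a Tap42-binding regulator, had 80.9 CPM in treated and 104 CPM in untreated pcf11-13, 90.01 in treated and 106 in untreated pcf11-dNL, and 76.5 and 99.1 in treated against 80.4 and 108 in untreated wild type. Treated cultures were lower in 4 of 4 pairs, without passing the test (-0.21 ± 0.17, adjusted p = 0.35).

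**Figure D1:**
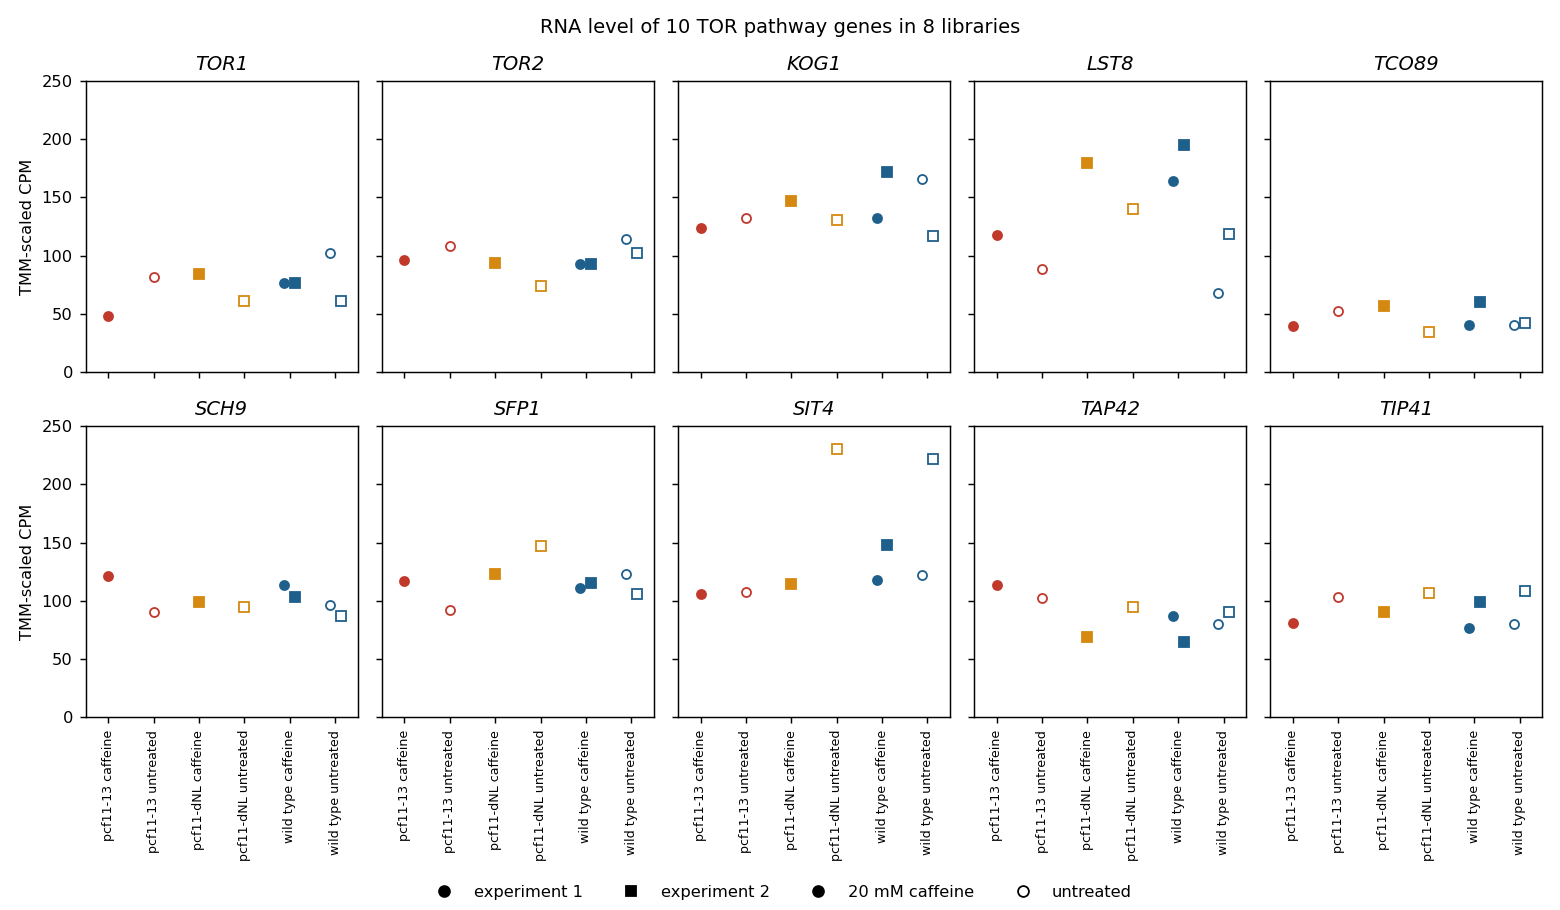
CPM of each of the 10 genes in each library (1 point per library, linear axis from 0; circles are experiment 1, squares experiment 2, filled points caffeine-treated, open points untreated). The LST8 points of treated wild type, at 164 and 195 CPM, lie above those of untreated wild type, at 67.5 and 119 CPM.

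As a group the 10 genes had a smaller median spread between libraries than all genes. The SD of log2 CPM over the 8 libraries had a median of 0.24 over the 10 genes (0.16 for SCH9 to 0.52 for LST8), beside 0.42 over all 5849 genes. The median size of the caffeine change over all strains was 0.18 log2 for them and 0.45 for all genes, and in wild type 0.20 and 0.56. It was 0.35 and 0.36 in pcf11-13, where the 10 genes were close to all genes, and 0.36 and 0.59 in pcf11-dNL. The median size of the difference from wild type in that change was 0.34 and 0.50 for pcf11-13, and 0.36 and 0.26 for pcf11-dNL, larger for the 10 genes. These are descriptions, with no test. All genes include ones with few counts, and they were not matched to the 10 genes for abundance. In a culture, fewer cells that make a transcript and fewer transcripts per cell cannot be told apart.

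**Figure D2:**
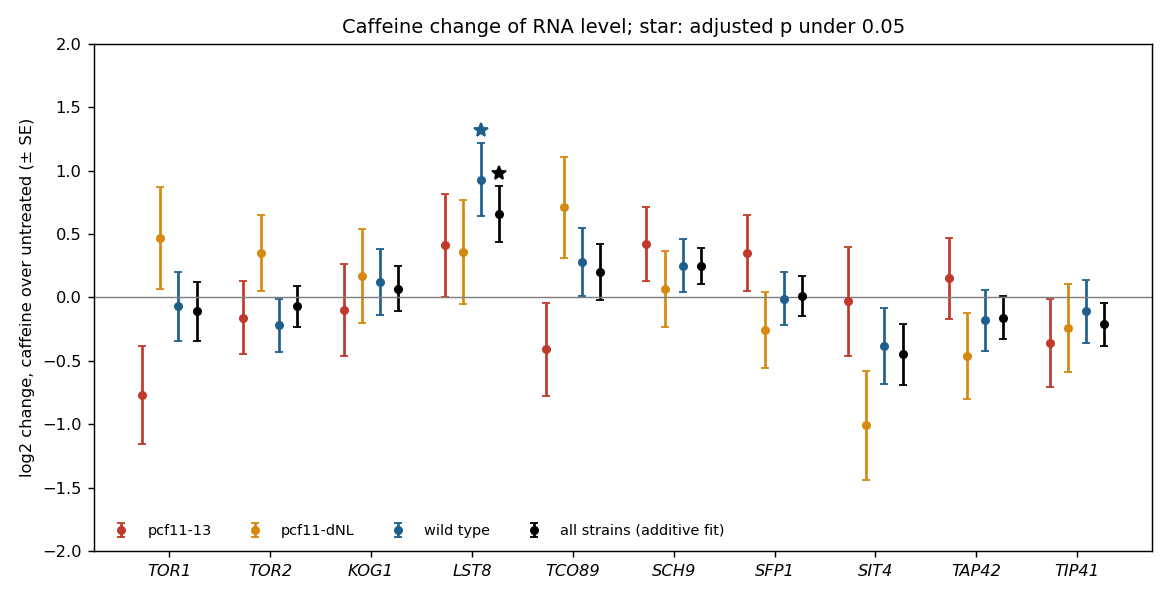
Log2 change of expression with caffeine for the 10 genes, by strain and over all strains, with bars for ± 1 SE and a star where the adjusted p was under 0.05. LST8 has a star in wild type (0.93 ± 0.29) and over all strains (0.66 ± 0.22).

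In the mutants the caffeine changes rest on 1 library per medium, whose spread is assumed to be that of the wild-type pairs. In pcf11-13 0 of 10 genes passed, as did 0% of all genes (701 genes had an unadjusted p under 0.05, and DESeq2 called 60). Without the treated wild-type sample of experiment 1 or 2, 161 or 172 genes were called. In pcf11-dNL 0 of 10 passed, where 11.6% of all genes did (677, and 1024 or 1041 without the same samples). The difference of the caffeine change between pcf11-13 and wild type was called for 0 of the 10 genes and for 0% of all genes (826 at an unadjusted p under 0.05, 42 under DESeq2, and 177 or 71 without treated wild type of experiment 1 or 2). That between pcf11-dNL and wild type was called for 0 of the 10 genes and 0% of all (128 unadjusted, 3 under DESeq2, and 13 or 3 without the same samples). For LST8 the difference was -0.53 ± 0.50 log2 in pcf11-13 (interval -1.67 to 0.62) and -0.57 ± 0.50 in pcf11-dNL (-1.72 to 0.58), so that the rise was not shown to differ between strains.

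The truncated share was largest on average in the kinase genes and KOG1. It is given here as a share of a gene's reads. The mean over libraries was 76.9% for TOR1, 43.5% for TOR2, 30.3% for KOG1, 15.5% for TCO89, 13.3% for SFP1, 7.20% for LST8, 6.52% for SCH9, 5.66% for TAP42, 1.80% for TIP41 and 0.427% for SIT4. The median of 5167 genes was 7.31%. TOR1 was the highest of the 10 genes in each library, while KOG1 (10.8% to 51.6%) and TCO89 (3.15% to 37.5%) overlapped. Over all genes, 96 had a larger mean than TOR1, 467 a larger one than TOR2 and 856 a larger one than KOG1. Binomial 95% intervals (Clopper-Pearson), which cover counting error only, put TOR1 at 62.9% to 81.8% in untreated wild type of experiment 2 and SIT4 at no more than 4.45% in any library.

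These 3 genes are also the longest of the 10. Across 5089 genes (70 retrotransposon gag or gag-pol genes left out), the truncated share correlated with coding length (Spearman rho 0.55), with the longest run of A (0.35) and with A content (0.16). For the number of A in the richest 30 nucleotides rho was 0.3. These are correlations across genes, which are not independent replicates, and no p is given. The 197 genes with at least 4000 coding nucleotides had a median of 32.4% (quartiles 19.1% and 51.3%), against 6.48% (1.92% and 18.7%) for 4892 shorter ones. Of the 197, 12 had a larger share than TOR1, 70 a larger one than TOR2 and 107 a larger one than KOG1. The poly(A) signal hexamer AATAAA occurred 5 times in the coding strand of TOR1, 3 times in TOR2 and 2 times in KOG1, and it was present in 94.9% of the 197 and in 54.7% of all coding sequences. The efficiency element TATATA occurred 0, 1 and 0 times in the same 3 genes, and was present in 55.8% of the 197 and 27.6% of all.

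**Figure D3:**
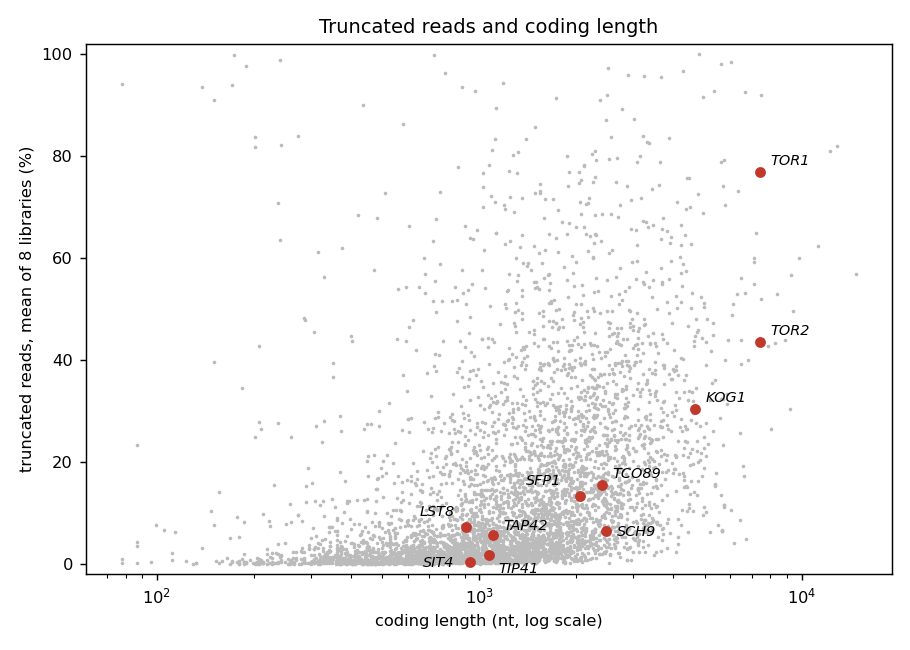
Mean truncated share of reads (percent) against coding length (nucleotides, log axis) for 5089 genes (1 point each), with the 10 genes in red. TOR1, at 7413 nucleotides and 76.9%, stands above TOR2, at 7425 nucleotides and 43.5%.

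With caffeine the truncated share of TOR2 was lower in 4 of 4 pairs. It was 39.1% in treated and 64.2% in untreated pcf11-13, 33.7% in treated and 51.4% in untreated pcf11-dNL, and 37.4% and 23.4% in treated against 55.8% and 43.1% in untreated wild type. All 4 treated values lay below all 4 untreated ones, and how many of all genes separate in this way was not counted. The change was -20.2 ± 4.45 percentage points (interval -31.7 to -8.75, adjusted p = 0.054, limma, here and for the other poly(A) measures). With the experiment number as a block (replicate block, since the labels pair libraries by experiment) the same change passed, with an adjusted p of 0.017. The share of all genes called in that blocked fit is not given here, so that this call has no background share beside it. None of the 10 genes passed in the fit without a block, where 10.5% of 5167 genes did (74 higher and 470 lower). That background itself rests on single libraries. It was 173 genes without untreated and 179 without treated wild type of experiment 1, 331 without either pcf11-13 library, and 0 without treated wild type of experiment 2 or either pcf11-dNL library. The median over genes moved the same way in every pair, at 5.35% in treated and 8.53% in untreated pcf11-13, 6.16% and 7.98% in treated and untreated pcf11-dNL, and 5.30% and 4.57% in treated against 8.73% and 6.02% in untreated wild type. The part of this general shift, and of the difference in depth, in the TOR2 change was not tested.

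KOG1 was also lower in 4 of 4 pairs. It was 26.2% in treated and 51.6% in untreated pcf11-13, 26.9% in treated and 33.5% in untreated pcf11-dNL, and 26.8% and 10.8% in treated against 42.2% and 24.0% in untreated wild type, with -15.2 ± 6.25 points (adjusted p = 0.18). TOR1 stayed above 70% in every library. It was 73.4% in treated and 79.5% in untreated pcf11-13, 81.8% in treated and 77.2% in untreated pcf11-dNL, and 74.5% and 71.4% in treated against 84.4% and 72.9% in untreated wild type, lower in 3 of 4 pairs (-3.23 ± 3.39 points, adjusted p = 0.57). Among the 197 long genes the median change with caffeine was -8.48 points, 82.2% were lower and 17.3% were called lower. For 4892 shorter genes it was -1.19 points, with 68.7% lower and 8.67% called lower.

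SFP1 was lower in 4 of 4 pairs as well (-8.03 ± 1.89 points, adjusted p = 0.062), at 8.33% in treated and 23.3% in untreated pcf11-13, 10.7% in treated and 17.8% in untreated pcf11-dNL, and 8.71% and 9.38% in treated against 14.7% and 13.5% in untreated wild type. Without either pcf11-13 library it passed, at -5.73 points (adjusted p = 0.04). SCH9 was lower in 4 of 4 pairs (-4.07 ± 1.37 points, adjusted p = 0.12). TCO89 went with the experiment: it changed with caffeine by -29.6 and -31.4 points in the pairs of experiment 2 and by 2.0 and 4.7 points in those of experiment 1. LST8 was at 19.8% in treated and 4.67% in untreated pcf11-dNL, and was higher with caffeine in 3 of 4 pairs (5.20 ± 3.15 points, adjusted p = 0.33). SIT4, TAP42 and TIP41 moved by at most 1.02 points on average.

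**Figure D4:**
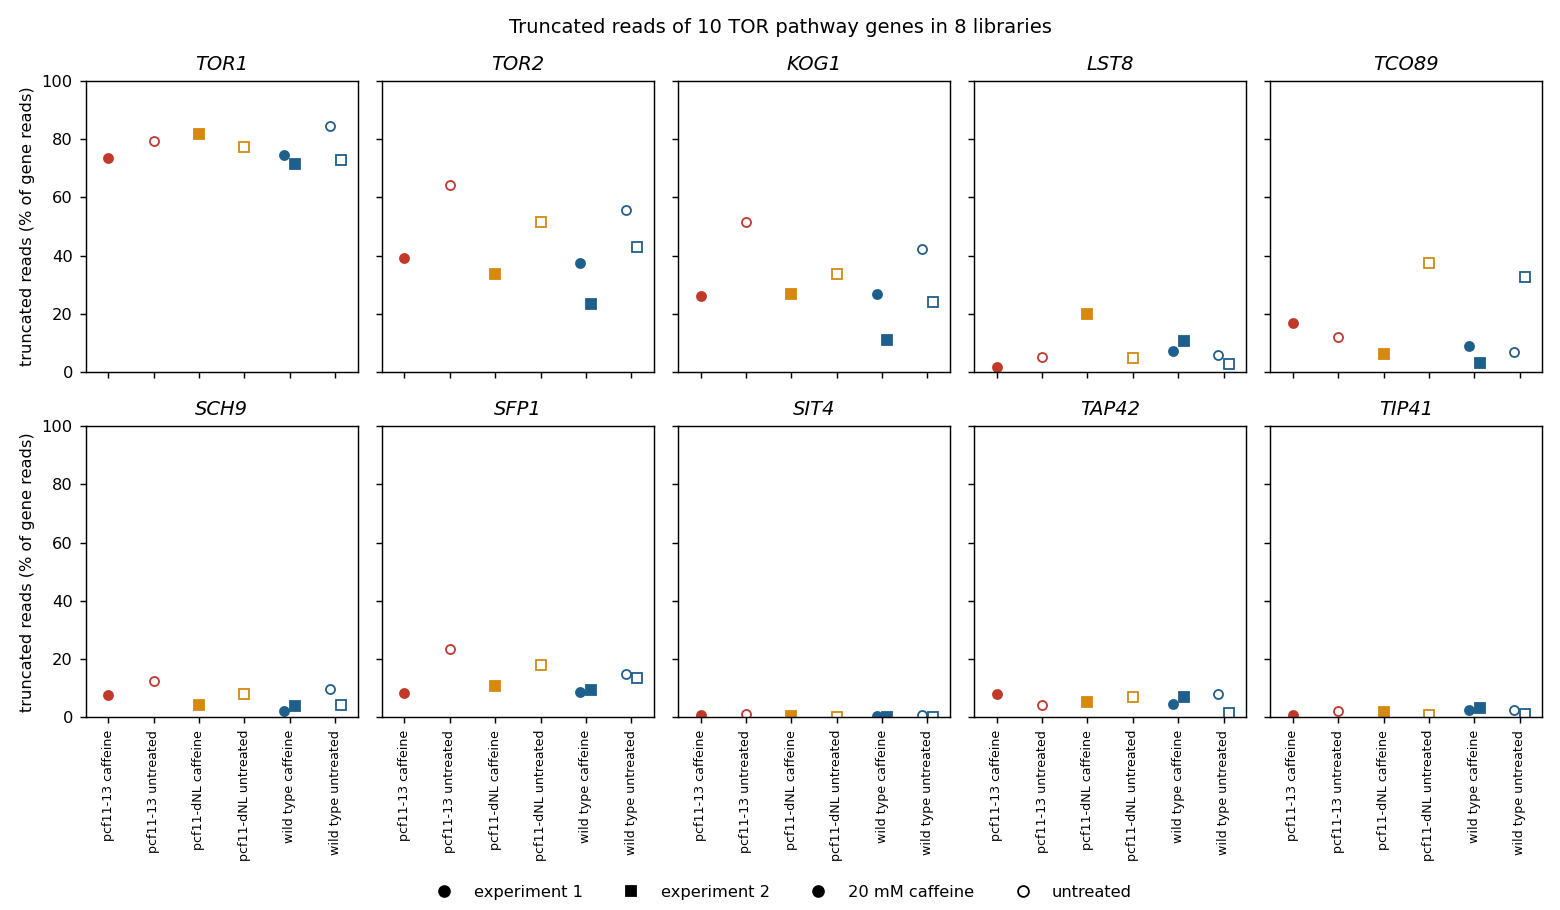
Truncated share of reads (percent) of the 10 genes in each library (1 point per library; circles are experiment 1, squares experiment 2, filled points caffeine-treated, open points untreated). TOR2 lies between 23.4% and 39.1% in the 4 treated libraries and between 43.1% and 64.2% in the 4 untreated ones.

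Counting only reads that ended in the 3′ UTR, TOR2 had 58.7 CPM in treated and 38.6 CPM in untreated pcf11-13, 62.2 in treated and 35.5 in untreated pcf11-dNL, and 57.8 and 70.7 in treated against 50.6 and 58.1 in untreated wild type. The treated value was the higher one in each pair, and the ranges just overlapped. The change over all strains was 0.39 log2 (adjusted p = 0.11), beside -0.07 for all reads. For KOG1 it was 0.35 log2 (adjusted p = 0.16), and for TOR1, whose 3′ UTR-ending reads made 12.9 to 21.9 CPM, it was 0.04 (0.92). The changes for 3′ UTR-ending reads came from a fit scaled on those reads alone. The CPM given for them were scaled on all reads, so that the scales differ.

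The 3′ UTRs of the 10 genes ran from 72.4 nucleotides on average in TIP41 to 364 in SFP1, with a median of 150 beside 141 over all genes. SIT4 had 296, LST8 267, TCO89 185, SCH9 161, KOG1 139, TOR1 127, TAP42 96.1 and TOR2 83.6 nucleotides. No gene of the 10 passed for caffeine, where 1.37% of 5165 genes did. KOG1 was shorter with caffeine in 4 of 4 pairs. Its mean length was 138 nucleotides in treated and 161 in untreated pcf11-13, 125 in treated and 148 in untreated pcf11-dNL, and 131 and 119.8 in treated against 154 and 137 in untreated wild type. The difference was -21.5 ± 4.84 nucleotides (interval -33.9 to -9.14, adjusted p = 0.085), with changes of -23.1 in pcf11-13, -23.5 in pcf11-dNL and -22.5 and -17.0 in wild type. SIT4 was also shorter in 4 of 4 pairs and TIP41 longer in 4 of 4, neither called.

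TAP42 (-12.4 ± 3.89 nucleotides, adjusted p = 0.13) and TOR2 (-9.36 ± 3.58, 0.17) passed only without a pcf11-13 library, at -16.9 (adjusted p = 0.025) and -13.2 (0.044), and the number of all genes called was then 726 or 721, beside 71 with all libraries. It was 16 and 11 without the untreated wild-type libraries of experiments 1 and 2, and 1 without either treated wild-type or either pcf11-dNL library. In pcf11-13 the LST8 3′ UTR was longer with caffeine by 53.6 nucleotides and that of SFP1 by 28.7, while the other 3 pairs were shorter for both. The median over all genes followed the same split, at 143 nucleotides in treated and 142 in untreated pcf11-13, 134 in treated and 149 in untreated pcf11-dNL, and 133 and 132 in treated against 143 and 141 in untreated wild type. Its part in the LST8 and SFP1 values was not tested. The difference from wild type, tested in a fit added after the data were seen, was 76.7 ± 20.5 nucleotides for LST8 (adjusted p = 0.36) and 51.6 ± 15.5 for SFP1 (0.38).

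**Figure D5:**
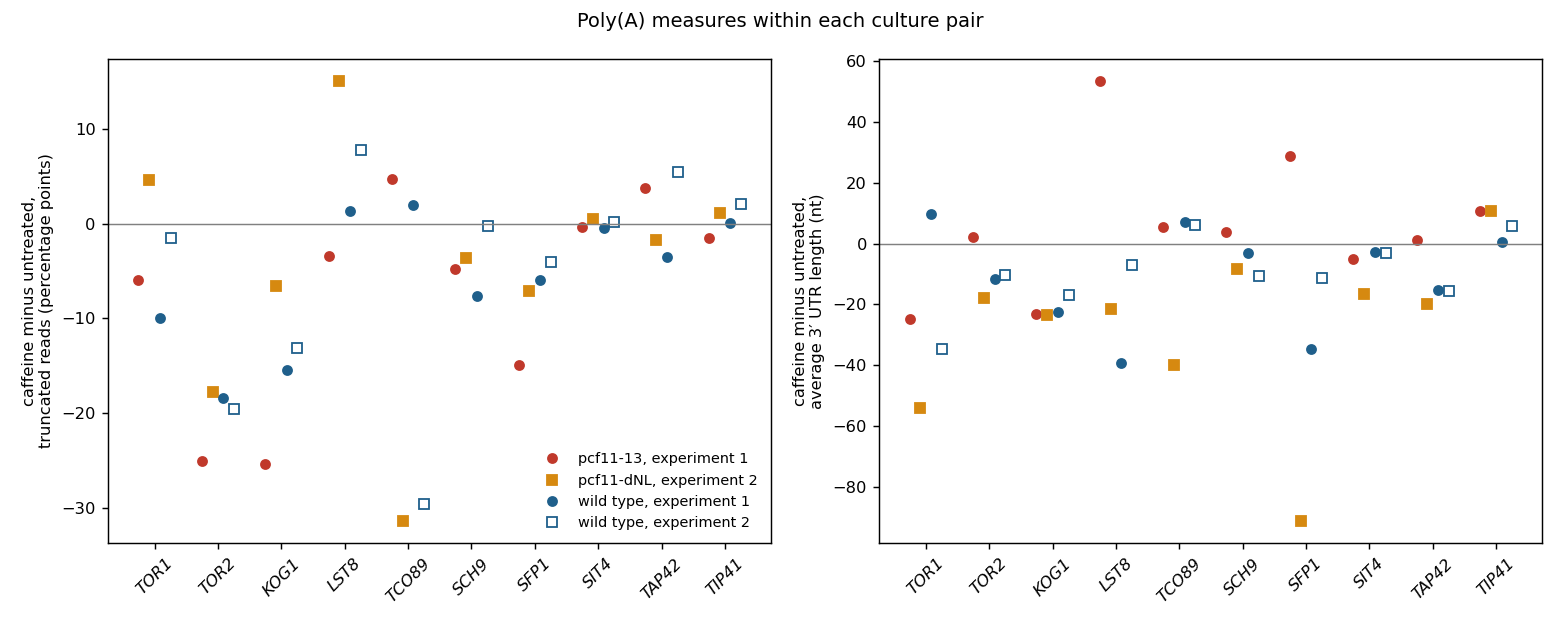
Change with caffeine of the truncated share (percentage points) and of the mean 3′ UTR length (nucleotides) in each of the 4 pairs of libraries for the 10 genes. TOR2 changed by -17.8 to -25.1 points and KOG1 by -17.0 to -23.5 nucleotides.

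The proximal share, a measure the authors name ProPrx, with bounds not given in the labels or headers, was at most 1.23% in any library for TOR1, TOR2, KOG1, LST8, SIT4 and TIP41. It reached 11.7% for TCO89 in untreated pcf11-dNL and 10.45% for SFP1 in the same library. No gene of the 10 passed for caffeine (0.0387% of 5167 genes did) or for pcf11-13 against wild type (0.174%) or pcf11-dNL against wild type (0%, with 232 genes at an unadjusted p under 0.05). These shares rest on single libraries. For caffeine, 2 genes became 0 without treated wild type of experiment 1 or 2, and 77 or 78 without untreated or treated pcf11-13. For pcf11-13, 9 became 0 without any 1 of the 4 wild-type samples, and 70 or 64 without its own untreated or treated sample. For pcf11-dNL, 0 became 3 or 142 without its untreated or treated sample.

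The Pcf11 alleles moved none of the 10 genes past the test over both media. For expression, 3.09% of genes passed in pcf11-13 against wild type and 0% in pcf11-dNL against wild type (163 genes at an unadjusted p under 0.05). The 181 genes called in pcf11-13 became 30 and 23 without the untreated wild-type samples of experiments 1 and 2, 49 and 57 without the treated ones, and 52 and 43 without untreated and treated pcf11-dNL. The largest differences in pcf11-13 were those of SIT4 (-0.50 ± 0.29 log2, adjusted p = 0.37) and TAP42 (0.43 ± 0.20, 0.26). Wild type here holds both experiments, and pcf11-13 only experiment 1. Within experiment 1, SIT4 was at 106 CPM in treated and 108 in untreated pcf11-13, against 118 and 122 in wild type. TAP42 was at 113 CPM in treated and 102.1 in untreated pcf11-13, against 86.8 and 80.4 in wild type. For 3′ UTR length the shares were 0.678% in pcf11-13 and 0% in pcf11-dNL (199 unadjusted). The 35 genes called in pcf11-13 became 240 without its untreated sample and 0 to 9 without any 1 of the other 7. SCH9 was shorter in pcf11-13 by -21.5 ± 5.55 nucleotides (adjusted p = 0.13), and TOR1 was longer in pcf11-dNL by 41.6 ± 15.0 (adjusted p = 1.0). The TOR1 difference was 22.8 without the untreated pcf11-dNL sample, which had the longest TOR1 value (184.9 nucleotides), and 60.5 without the treated one. Without any 1 wild-type library it was 30.4 to 47.5. For the truncated share they were 0.213% (11 genes, and 0 to 3 without any 1 of the 8 samples) and 0% (220 unadjusted), and SCH9 was higher in pcf11-13 by 5.00 ± 1.68 points (adjusted p = 0.28). TOR2 (11.7 ± 5.45 points, 0.44) and KOG1 (13.0 ± 7.65, 0.54) were higher in pcf11-13 in value, against wild type of both experiments, without passing. Within experiment 1, TOR2 was at 39.1% in treated and 64.2% in untreated pcf11-13, against 37.4% and 55.8% in wild type. KOG1 was at 26.2% in treated and 51.6% in untreated pcf11-13, against 26.8% and 42.2% in wild type.

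Of 77 tested genes in wider lists of the TOR pathway, which leave out the 10, 14 rose and 3 fell with caffeine over all strains, beside 37.9% of all genes, with a median change of 0.05 log2. In wild type 10 rose and 2 fell, in pcf11-dNL 3 rose, and in pcf11-13 none passed, beside 31.6%, 11.6% and 0% of all genes. The per-list counts below are read against the 37.9% over all strains. By list, of 8 subunits and partners of the complexes 1 rose and 1 fell, of 16 genes upstream of TORC1 4 rose, and of 11 kinases 3 rose. In the phosphatase list 2 of 14 rose and 1 fell, among 19 transcription factors and regulators 3 rose and 1 fell, and of 9 genes of Rho1 and cell integrity signalling 1 rose. In pcf11-13 against wild type 1 of the 77 fell (3.09% of all genes passed), and in pcf11-dNL against wild type none passed (0% of all).

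FPR1, the FKBP12 that binds rapamycin, fell by 1.08 ± 0.21 log2 (adjusted p = 0.0053), at 377 to 489 CPM in treated and 663 to 1040 in untreated libraries. SLM2, a TORC2 target that binds phosphoinositides, rose by 0.49 ± 0.16 (0.034). Upstream of TORC1, the SEA complex genes IML1 (0.77 ± 0.18, 0.012), NPR3 (0.64 ± 0.21, 0.038) and RTC1 (0.63 ± 0.18, 0.023) rose. Among kinases, RIM15, which promotes entry into quiescence, rose by 1.55 ± 0.30 (0.0049), YPK1, a TORC2 substrate, by 1.22 ± 0.21 (0.0035), and NPR1, a regulator of permeases, by 0.58 ± 0.16 (0.024). In the phosphatase list the activators RRD1 (0.86 ± 0.15, 0.0037) and RRD2 (0.89 ± 0.25, 0.023, higher in 3 of 4 pairs) rose, and the catalytic subunit PPH3 fell by 0.57 ± 0.18 (0.036). PAR32, an ammonium transport regulator, rose by 1.11 ± 0.27 (0.012), ATG13, an autophagy initiator, by 1.03 ± 0.18 (0.0039), and MAF1, the repressor of RNA polymerase III, fell by 0.89 ± 0.14 (0.0027), at 52.9 to 69.9 CPM in treated against 112 to 117 in untreated libraries. MKK1, a kinase of the cell wall integrity cascade, rose by 1.04 ± 0.15 (0.0015). Apart from RRD2, each of these 15 genes moved one way in all 4 pairs. They were picked for passing the test with the largest changes in these same libraries, so that this agreement adds no separate support.

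Leaving out 1 library, FPR1, RIM15, YPK1, RRD1, ATG13, MAF1 and MKK1 passed without any of the 8. IML1 and PAR32 lost the call without either pcf11-dNL library (0.72 and 0.92 log2). SLM2, NPR3, RTC1, NPR1, RRD2 and PPH3 lost it without either pcf11-dNL library and without wild-type libraries. The lost calls ran from 0.42 to 0.52 log2 for SLM2, 0.55 to 0.63 for NPR3, 0.48 to 0.67 for RTC1, 0.48 to 0.57 for NPR1, 0.73 to 0.89 for RRD2 and -0.61 to -0.40 for PPH3. The wild-type ones were both treated libraries for each of the 6, the untreated one of experiment 1 for SLM2, NPR3 and RRD2, and the untreated one of experiment 2 for NPR3, RTC1, NPR1, RRD2 and PPH3. With the experiment as a replicate block, SLM2, NPR3 and PPH3 lost the call (adjusted p = 0.052, 0.053 and 0.055), and SLM2 also lost it with reads ending in the 3′ UTR only (0.39 log2, 0.073).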

How the data were processed

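The 4 deposited tables give, per the file headers, the estimated counts of reads per gene that the authors deposited (not scaled, rounded here to whole numbers), an average 3′ UTR length (a score in nucleotides, with 40 values listed at -1 treated as missing), and 2 fractions of a gene's reads, truncated and ProPrx. A count-weighted mean of the truncated fraction lay within 0.00037 of the share of reads outside the 3′ UTR in the authors' pooled columns. The submitters' processing notes name the build sacCer3. No label or header names the aligner or the counting rules.

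Expression was tested with edgeR 4.0.16 (quasi-likelihood, TMM, 5849 genes after filterByExpr) in R 4.3.3 and the other measures with limma 3.58.1 on genes with 20 or more counts in each library, with Benjamini-Hochberg adjustment over all genes and a threshold of 0.05. Caffeine in each strain came from a fit of 6 group means, and caffeine over all strains and the mutant comparisons from a fit with genotype and medium as additive terms. Log2 CPM used a prior count of 2. The analysis was tested on simulated data. DESeq2 1.42.0, other filters, scalings, replicate blocks and the omission of each library were tried as alternatives. The experiment numbers in the labels pair the wild-type libraries, and the deviations of same-numbered ones from their group means correlated at 0.194 over 5849 genes. The 10 genes and the wider lists were chosen with earlier results of these data known. Up to 3 genes per wider list with the largest change among those called, and the 3 genes most correlated with a called gene, are named.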

Additional observations from a re-analysis of the deposited data

How the results depend on the processing

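The number of the 10 genes called for caffeine in wild type, 1 (LST8), was 0 under DESeq2, 0 with reads ending in the 3′ UTR only, and 0 to 1 when each library was left out. Over all strains it was 0 with reads ending in the 3′ UTR only and 0 to 1 when each library was left out. For the truncated share over all strains it was 1 with the experiment as a replicate block (TOR2, paired by experiment) and 0 to 1 when each library was left out, and for 3′ UTR length 0 to 2. The share of all genes called for the truncated share of caffeine with that block is not given here. The replicate block changed no other call of the 10 genes, and no value called in the main analysis changed direction. Over all genes, pcf11-13 against wild type gave 181 calls for expression, and 409 under DESeq2, 390 on library totals without TMM and 30 with the block. Caffeine in wild type gave 989 to 1759 calls when each library was left out, and over all strains 1087 to 2835. For 3′ UTR length the block gave 34 calls for caffeine and 8 for pcf11-13, and for the truncated share of pcf11-13 it gave 0, as did a logit scale. For the proximal share, caffeine gave 13 calls at 50 counts, 0 with the block and 43 on a logit scale, and pcf11-13 gave 0 with the block and 16 on a logit scale. The untreated wild-type and pcf11-dNL libraries had the fewest counts, and the counting interval of the TCO89 truncated share in untreated pcf11-dNL ran from 22.5% to 55.2%. The causes of these changes were not tested.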
